A study of Homo sapiens with 9 samples.

Results

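The clustered, replication-dependent histone genes were followed in H358, an established human non-small cell lung carcinoma line, after CRISPR knockout of SMARCA4 (the gene of BRG1) or of SMARCA2 (the gene of BRM), either of which can be the ATPase motor of a SWI/SNF chromatin remodelling complex. RNA-seq had been run on 9 libraries from total RNA, with 3 of the BRG1 knockout, 3 of the BRM knockout and 3 of the unedited Parental line. All 3 groups were cultured in RPMI with serum, and no treatment or time point was named. The sources used here do not say whether a knockout was a clone or a pool, which sites the guides cut or whether replicates were separate cultures, so a p-value reflects the spread between these libraries, which may be technical. The members were all protein-coding genes of GENCODE release 29 whose symbols begin with HIST1H, HIST2H, HIST3H or HIST4H, which gave 71 of 58237 genes. Of these, 55 lie in the HIST1 cluster on chromosome 6, 12 HIST2 and 3 HIST3 genes lie on chromosome 1, and HIST4H4 lies on chromosome 12. By product they are 6 linker histone H1 genes, 17 H2A, 18 H2B, 15 H3 and 15 H4 genes.

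Nucleosomes wrap DNA around an octamer of H2A, H2B, H3 and H4, and linker histone H1 binds where the DNA enters and leaves. The clustered genes supply these proteins during S phase, when the copied genome needs new nucleosomes. Their mRNAs are mostly made without a poly(A) tail: the stem-loop binding protein SLBP and the U7 snRNP direct cleavage just after a conserved stem-loop, and some members also make a longer, polyadenylated mRNA by running past it. A library that selects poly(A) RNA would therefore see mainly the longer forms, and the sources used here do not say whether poly(A) selection or rRNA depletion was used.

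The stem-loop was read from the GENCODE 29 transcripts, and 1 example is printed for each form of its 16-base core because cleavage at this element decides whether an mRNA ends without a poly(A) tail. The core was found in a listed transcript of 32 members and took 6 forms. Sites are given 5′ to 3′ with the core in capitals and 5 bases on each side in lower case.
HIST2H2BE: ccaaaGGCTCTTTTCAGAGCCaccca
HIST1H4H: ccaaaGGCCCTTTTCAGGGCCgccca
HIST1H2BC: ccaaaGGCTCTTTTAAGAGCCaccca
HIST2H4A: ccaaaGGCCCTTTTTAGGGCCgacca
HIST1H2AG: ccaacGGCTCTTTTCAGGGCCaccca
HIST1H3E: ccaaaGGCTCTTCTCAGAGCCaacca
The HIST2H2BE form stood in 17 members, among them HIST2H2AA3, HIST2H2AA4, HIST1H2AC, HIST3H2A and HIST1H3H. The HIST1H4H form stood in 5 members, all of them H4 genes, and the HIST1H2BC form in 5. The HIST2H4A form was shared by HIST2H4A, HIST2H4B and HIST1H4I, and the HIST1H2AG and HIST1H3E forms were each found in 1 member.

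Most reads on the members fell on transcript models that reach past the stem-loop. The files list 100 transcripts of the 71 members, and 40 of them run past a stem-loop. These 40 held 78.7, 76.7 and 79.2% of the member reads in the BRG1 knockout libraries, 82.4, 81.7 and 83.7% in the BRM knockout libraries, and 72.2, 75.0 and 76.8% in the Parental libraries. The BRM knockout libraries lay above all others, and the BRG1 knockout overlapped the Parental line by its replicate 2 alone. The 36 models that end at the stop codon held 14.9, 18.0 and 12.7% in the BRG1 knockout, 9.06, 8.70 and 7.47% in the BRM knockout, and 18.7, 15.9 and 13.9% in the Parental libraries. The BRM knockout was below every other library, while the BRG1 knockout and Parental libraries overlapped. The 5 models that end at the stem-loop held 0.279 to 1.61%, and 11 models with a 3′ end that holds no stem-loop held 4.64 to 8.85%. A model that ends at the stop codon can take only reads of the coding part, so a read count on such a gene is not the count of a whole mRNA. Reads on a model that runs past the stem-loop include those of its coding part, so these shares do not measure the longer mRNA. The models of HIST2H2AA3 and HIST2H2AA4 are among the 40, reach only 35 bases past the stem-loop and held 25909 and 32659 reads.

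**Figure D1:**
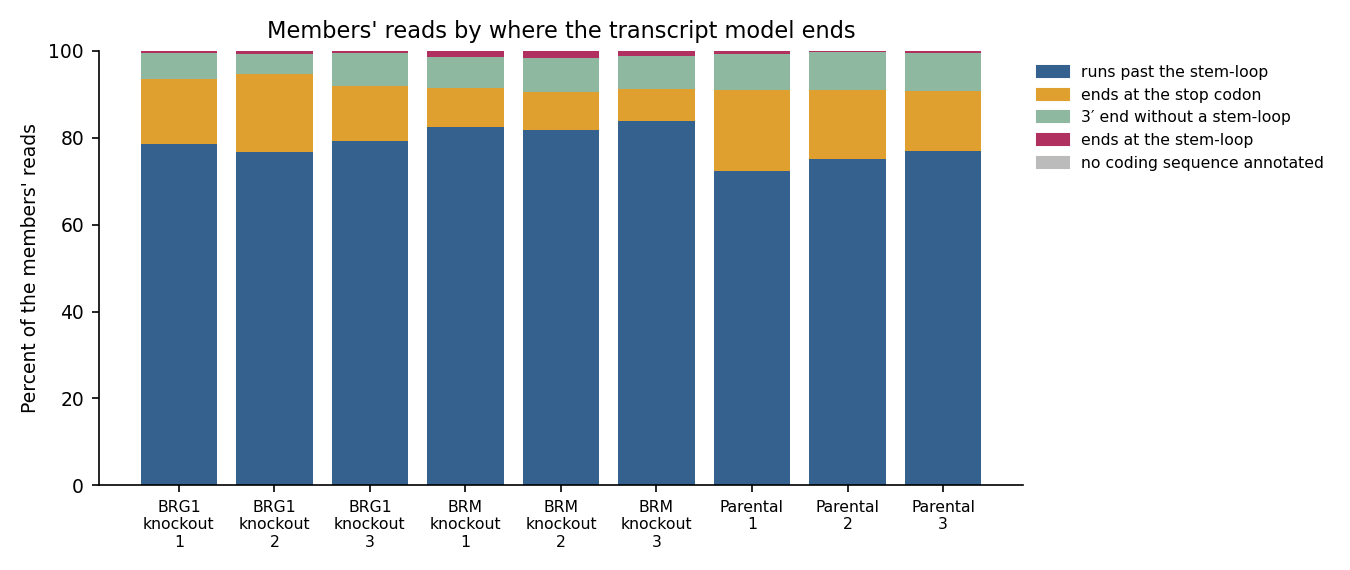
Percent of all reads on the 71 clustered histone genes (vertical axis) by where the transcript model ends, for the 9 libraries, with the BRG1 knockout left, the BRM knockout next and the Parental line right. Models that run past the stem-loop held from 72.2 to 83.7% of member reads in every library.

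The series' own controls were checked before the histone values were read. Libraries held 31969961 to 40679073 estimated reads. SMARCA4 was at 21.2 to 23.9 counts per 1e6 reads (CPM, scaled by TMM) in the BRG1 knockout, against 212 to 244 CPM in the Parental line, and SMARCA2 was at 9.36 to 12 CPM in the BRM knockout, against 49.3 to 58.0 CPM in the Parental line. The 5 epithelial markers summed to 421 to 1176 CPM in the BRG1 knockout, 4705 to 5472 CPM in the BRM knockout and 5134 to 5344 CPM in the Parental line, and the 5 fibroblast markers to 285 to 325, 81.7 to 126 and 30.5 to 61.0 CPM in the same order, with DCN, a defining one, at 0.526 CPM or less. COL1A1 carried most of that sum, averaging 247 CPM in the BRG1 knockout, 91.6 CPM in the BRM knockout and 28.5 CPM in the Parental line. PDGFRB averaged 44.9, 0.223 and 0.553 CPM in the same order. LUM averaged 12.7, 8.38 and 12.2 CPM, and COL1A2 0.633, 1.77 and 0.878 CPM. Blood and endothelial markers stayed at 4.12 CPM or less in sum in every library, and CD3E was 0 in all BRG1 knockout libraries. Within the BRG1 knockout, replicate 3 stood apart, with KRT19 at 0.277 CPM and CDH1 at 6.64 CPM. Whether these differences between libraries have a part in the histone values was not tested.

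The BRG1 knockout devoted more of its reads to clustered histone genes than the Parental line, and the BRM knockout fewer. The members took 0.146, 0.123 and 0.0967% of the gene-assigned reads in the BRG1 knockout libraries, 0.0553, 0.0380 and 0.0604% in the BRM knockout libraries, and 0.0638, 0.0776 and 0.0713% in the Parental libraries. All 3 BRG1 knockout libraries lay above all others, and all 3 BRM knockout libraries lay below the Parental ones, the nearest pair being BRM knockout replicate 3 and Parental replicate 1. The means were 0.122 ± 0.0245% in the BRG1 knockout, 0.0512 ± 0.0117% in the BRM knockout and 0.0709 ± 0.00692% in the Parental line (SD, n = 3 each). The BRG1 knockout mean was thus 1.72 times the Parental and 2.38 times the BRM knockout mean, and the BRM knockout mean 0.723 times the Parental. Counted over nuclear protein-coding genes alone, the means were 0.128, 0.0542 and 0.0743% in the BRG1 knockout, the BRM knockout and the Parental line. These shares are given without a test, and in bulk RNA fewer cells in S phase and less histone mRNA per cell cannot be told apart.

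Reads on rRNA genes followed another order. They took 0.492, 0.357 and 0.392% in the BRG1 knockout, 0.437, 0.651 and 0.531% in the BRM knockout, and 0.220, 0.154 and 0.167% in the Parental libraries. Both knockouts lay above every Parental library, by a ratio of means of 2.30 for the BRG1 knockout and 3.00 for the BRM knockout, and the knockouts overlapped each other. All of these reads were on mitochondrial rRNA genes, and nuclear rRNA genes held 0 reads. The rRNA share used here is therefore a share of mitochondrial rRNA and does not measure how far nuclear rRNA was removed. The histone share was therefore highest in a group with a raised rRNA share and lowest in the other such group. In either difference from the Parental line, a part tied to this share cannot be told apart from genotype. No Parental library had an rRNA share as high as any knockout library. The part of RNA selection was not measured.

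**Figure D2:**
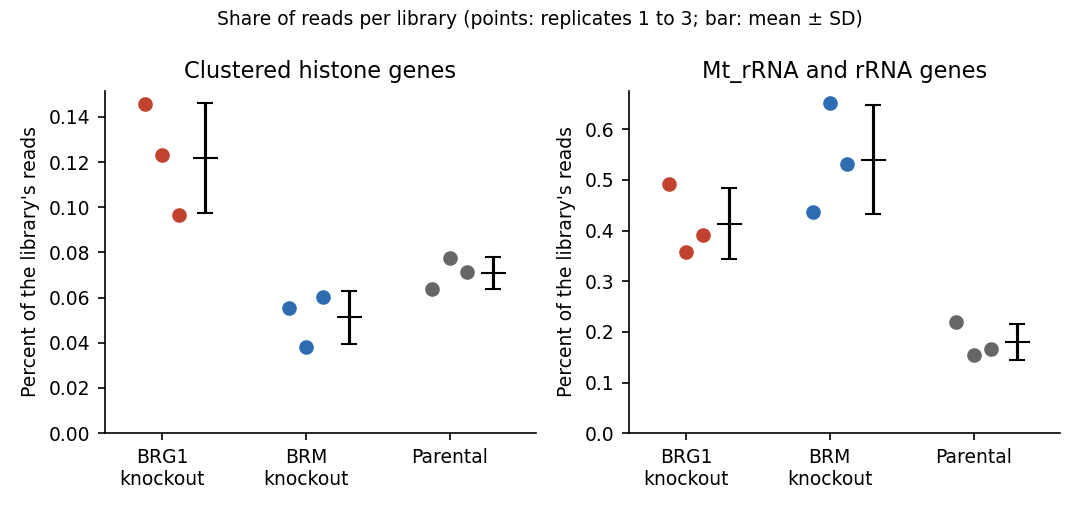
Percent of gene-assigned reads on the 71 clustered histone genes and percent on Mt_rRNA and rRNA genes, 1 point a library with the group mean, in the BRG1 knockout, the BRM knockout and the Parental line. The histone share is highest in the BRG1 knockout (0.0967 to 0.146%) and lowest in the BRM knockout (0.0380 to 0.0604%), while the rRNA share is raised in both.

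A few members carried most of this signal. The 12 members with the most reads held 87.2% of all 270741 member reads, and the leading 6 held 67.0%. The leading 6 took 74.2% of member reads in the BRG1 knockout, 62.3% in the BRM knockout and 58.2% in the Parental line. At the other end, 13 members had 0 reads in all 9 libraries and 13 more had 1 to 10 reads in all. In transcripts per 1e6 (TPM), which corrects for length, HIST1H2BK led with a mean of 458 over the 9 libraries, followed by HIST2H2AA4 at 438, HIST2H2AA3 at 374, HIST1H1C at 249 and HIST2H4A at 243. The lead of HIST1H2BK rests on a model of only 381 bases, of which 13.7% of the 31-base stretches are unique to it, so reads of similar H2B genes may have been divided differently. Summed by type, mean TPM in the BRG1 knockout, the BRM knockout and the Parental line was 464, 87.2 and 208 for H1, 1768, 590.02 and 698 for H2A, and 852, 435 and 925 for H2B. The H3 genes summed to 76.1, 60.2 and 86.3 TPM and the H4 genes to 412, 317 and 490 TPM in the same order. By summed TPM, H2A and H1 were higher in the BRG1 knockout than in the Parental line, and every type had its lowest sum in the BRM knockout. By share of reads, which does not correct for length and gives the short HIST1H2BK model less weight, the H2B genes were higher too, at a mean of 0.0338% in the BRG1 knockout, 0.0185% in the BRM knockout and 0.0208% in the Parental line, with no overlap of the BRG1 knockout with the others.

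Tested gene by gene, the members did not move as 1 block. A filter that asks for enough reads in at least as many libraries as a group holds kept 40 of the 71 members among 18205 genes, 3 of H1, 10 of H2A, 12 of H2B, 8 of H3 and 7 of H4. The 31 others had 68 reads or fewer in all. Each comparison used edgeR's quasi-likelihood test with Benjamini-Hochberg adjustment over all genes tested, 2-sided, and a gene is called at an adjusted p under 0.05. In the BRG1 knockout against the Parental line, 10 members were higher and 6 lower, which is 25% and 15% of those tested, beside 21.6% and 21.9% of all genes (43.5% in either direction). Both shares lie near those of all genes, and the median log2 fold change was -0.06 for the members and -0.01 for all genes. In the BRM knockout against the Parental line, 3 members were higher and 16 lower, or 7.5% and 40.0%, beside 21.0% and 16.4% of all genes (37.4% in either direction). The median log2 fold change there was -0.52, against 0.09 for all genes, and 30 of 40 members had a difference below 0. In the BRG1 knockout against the BRM knockout, 18 members were higher and 2 lower, or 45% and 5.0%, beside 21.6% and 23.8% of all genes (45.3% in either direction), with medians of 0.77 and -0.00. The comparisons with the Parental line share its 3 libraries, so their calls are not independent of each other.

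Nearly all calls against the Parental line were lost in a fit with the rRNA share, and most of the direct ones were kept. With log2 of the rRNA percent as a covariate, 0 members remained higher and 1 lower, HIST1H2BA, in the BRG1 knockout against the Parental line, and 0 in either direction in the BRM knockout. Of the sets called against the Parental line, the rises in the BRG1 knockout kept their median size with larger errors, and the others shrank. For the 10 members called higher in the BRG1 knockout the median was 1.59 with the covariate and 1.25 without it, as for HIST2H2AA4, at 2.09 ± 0.71 with it, and HIST1H1C, at 1.57 ± 0.69. For the 16 called lower in the BRM knockout the median was -1.32 with the covariate and -2.06 without it. The sign turned for HIST1H4H and HIST2H2AC among these 16. For the 6 called lower in the BRG1 knockout the median was -0.51 with the covariate and -1.90 without it. For the 3 called higher in the BRM knockout it was 0.52 with the covariate and 0.95 without it. The background moved with them: that fit called 0 of all 18205 genes in the BRM knockout against the Parental line, with 1534 at an unadjusted p under 0.05, 2 of them members. Between the BRG1 and BRM knockouts, whose rRNA shares overlap, 13 members stayed higher and 1 lower. Without BRG1 knockout replicate 3 and Parental replicate 1 the counts were 10 higher and 8 lower in the BRG1 knockout, 2 and 17 in the BRM knockout, and 16 and 1 between the knockouts. Leaving out single libraries moved some counts by more than 1.5 times. In the BRG1 knockout 6 members were higher without BRG1 knockout replicate 1, and those lower were 3 without BRG1 knockout replicate 2, 3 without Parental replicate 2 and 2 without Parental replicate 3. In the BRM knockout 1 member was higher without BRM knockout replicate 1 or 3 or Parental replicate 2 or 3. Between the knockouts 1 was lower without BRG1 knockout replicate 2 or 3 or BRM knockout replicate 3.

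**Figure D3:**
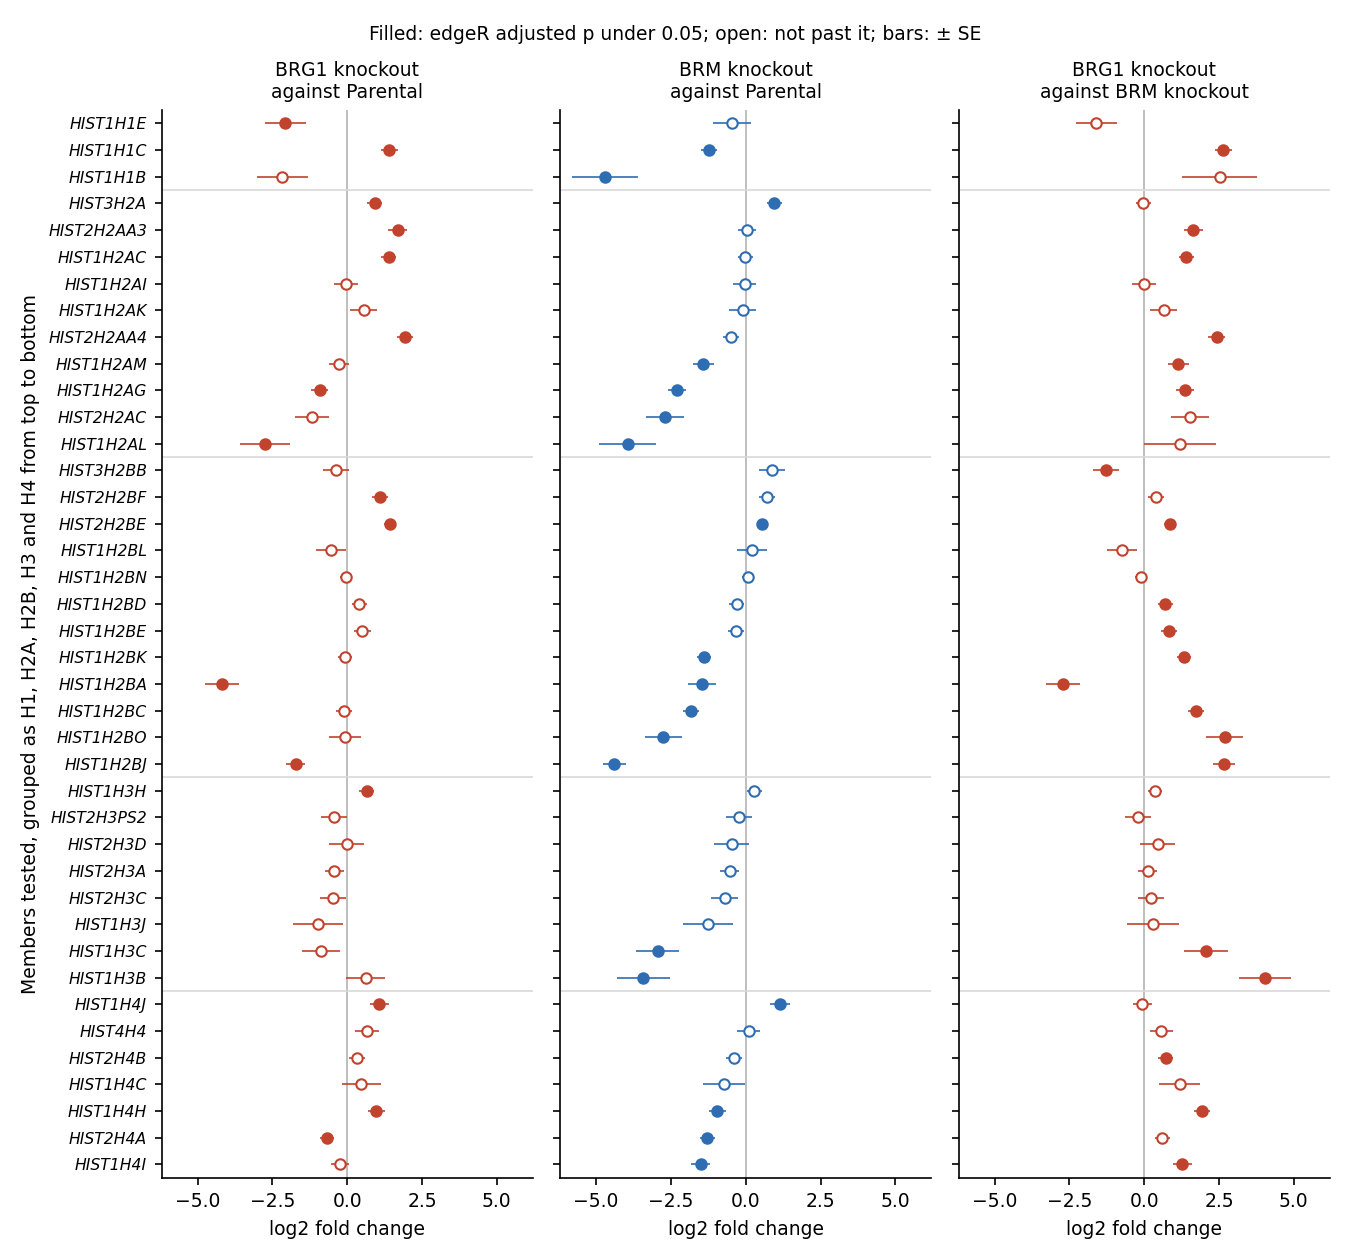
Log2 fold change with its standard error for the tested members, grouped by histone type, in the BRG1 knockout against Parental, the BRM knockout against Parental and the BRG1 against the BRM knockout, filled where the adjusted p is under 0.05. Of 40 members, 16 were lower in the BRM knockout than in the Parental line and 18 were higher in the BRG1 than in the BRM knockout.

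Among linker histones, HIST1H1C, a somatic H1 gene, moved in opposite directions in the knockouts. It had 163, 167 and 85.3 CPM in the BRG1 knockout, 27.2, 16.3 and 22.9 CPM in the BRM knockout, and 61.0, 53.1 and 41.9 CPM in the Parental line. The 3 groups did not overlap, with the BRG1 knockout highest and the BRM knockout lowest. The log2 fold change was 1.41 ± 0.27 (SE) in the BRG1 knockout (adjusted p = 0.002) and -1.23 ± 0.28 in the BRM knockout (adjusted p = 0.0056) against the Parental line, and 2.64 ± 0.29 between the knockouts (adjusted p = 4.0e-05). HIST1H1C held nearly all H1 reads, and the H1 genes made up 11.4, 13.1 and 8.79% of member reads in the BRG1 knockout, 5.22, 4.31 and 3.88% in the BRM knockout, and 10.0, 7.31 and 6.50% in the Parental line. HIST1H1E, another somatic linker histone gene, had 0.455, 0.105 and 0.526 CPM in the BRG1 knockout, 1.93, 0.271 and 1.09 CPM in the BRM knockout, and 1.20, 1.64 and 1.72 CPM in the Parental line. It was lower in the BRG1 knockout by a log2 fold change of -2.07 ± 0.68 (adjusted p = 0.03), a call lost without BRG1 knockout replicate 2, Parental replicate 2 or Parental replicate 3, where it was -2.01 to -1.70 with an adjusted p of 0.0699 to 0.076. HIST1H1B, the third one tested, had 13 reads over the BRG1 knockout libraries, 2 over the BRM knockout and 64 over the Parental line. In the BRM knockout that is 31.2 times lower, with a 95% counting interval of 8.29 to 263 (adjusted p = 0.0073), and its listed model ends at the stop codon.

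Among H2A genes, the HIST2 pair and HIST1H2AC carried the rise in the BRG1 knockout. HIST2H2AA3 and HIST2H2AA4 are copies with identical transcripts over 549 bases, so the split of reads between them is uncertain and their sum is given. Together they had 411, 421 and 211 CPM in the BRG1 knockout, 84.7, 61.9 and 106 CPM in the BRM knockout, and 103, 100.2 and 92.4 CPM in the Parental line. Every BRG1 knockout library was above all others, and the BRM knockout and Parental libraries overlapped. Singly, HIST2H2AA4 had 224, 265 and 121 CPM in the BRG1 knockout, 32.4, 33.0 and 48.7 CPM in the BRM knockout, and 49.0, 54.5 and 57.3 CPM in the Parental line. Its log2 fold change in the BRG1 knockout was 1.92 ± 0.27 (adjusted p = 2.8e-04) against the Parental line, the largest rise of any member there, and 2.42 ± 0.28 (adjusted p = 5.7e-05) against the BRM knockout. HIST2H2AA3 had 187, 156 and 90.3 CPM in the BRG1 knockout, 52.3, 28.9 and 57.4 CPM in the BRM knockout, and 54.0, 45.6 and 35.1 CPM in the Parental line, with a log2 fold change of 1.68 ± 0.31 in the BRG1 knockout (adjusted p = 0.0016). HIST1H2AC had 160.2, 127 and 127 CPM in the BRG1 knockout, 58.7, 31.4 and 65.5 CPM in the BRM knockout, and 42.2, 58.7 and 56.8 CPM in the Parental line. The BRG1 knockout stood clear of the others by 1.39 ± 0.25 in log2 fold change against the Parental line (adjusted p = 0.0014), while the BRM knockout differed from it by -0.02 ± 0.25 (adjusted p = 0.96).

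HIST3H2A, the H2A gene of the small HIST3 cluster, was the H2A gene called higher in both knockouts. It had 36.1, 31.6 and 22.8 CPM in the BRG1 knockout, 27.3, 34.5 and 30.3 CPM in the BRM knockout, and 21.3, 10.8 and 15.5 CPM in the Parental line. Both knockouts lay above all Parental libraries and overlapped each other, with log2 fold changes of 0.93 ± 0.25 (adjusted p = 0.012) in the BRG1 knockout and 0.95 ± 0.25 (adjusted p = 0.013) in the BRM knockout. The call in the BRG1 knockout was lost without its replicate 1, where the change was 0.72 (adjusted p = 0.0624). With the rRNA covariate the direction turned, to -0.22 ± 0.47 in the BRG1 knockout and -0.56 ± 0.60 in the BRM knockout, neither called. HIST1H2AG and HIST1H2AL were lower in both. HIST1H2AG had 17.5, 12.3 and 22.7 CPM in the BRG1 knockout, 6.06, 6.14 and 8.07 CPM in the BRM knockout, and 21.3, 44.0 and 34.0 CPM in the Parental line, so the BRM knockout was below every other library and the BRG1 knockout overlapped the Parental line. Its log2 fold change was -0.92 ± 0.29 in the BRG1 knockout (adjusted p = 0.023) and -2.29 ± 0.30 in the BRM knockout (adjusted p = 3.6e-04), and the call in the BRG1 knockout was lost without BRG1 knockout replicate 2, Parental replicate 2 or Parental replicate 3, where it was -0.91 to -0.67. HIST1H2AL had 5 reads over the BRG1 knockout libraries, 2 over the BRM knockout and 37 over the Parental line. That is 7.17 times lower in the BRG1 knockout (95% counting interval 2.81 to 23.4, adjusted p = 0.021) and 18.0 times lower in the BRM knockout (4.65 to 154.5, adjusted p = 0.0085). The call in the BRG1 knockout was lost without BRG1 knockout replicate 1 or 2 or Parental replicate 3, at log2 fold changes of -2.61 to -2.28. Of 10 H2A genes tested, 4 were higher and 2 lower in the BRG1 knockout (40% and 20%, beside 21.6% and 21.9% of all genes). In the BRM knockout 1 was higher and 4 lower (10% and 40%, beside 21.0% and 16.4%). In the BRG1 against the BRM knockout 5 were higher and 0 lower (50% and 0%, beside 21.6% and 23.8%).

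Among H2B genes, HIST2H2BE, the member with the most reads, was called higher in both knockouts, though not stably in the BRM knockout. It had 249, 213 and 181 CPM in the BRG1 knockout, 128, 83.6 and 143 CPM in the BRM knockout, and 82.6, 82.2 and 75.2 CPM in the Parental line. The groups did not overlap, although BRM knockout replicate 2 lay just above the Parental libraries. The log2 fold change was 1.42 ± 0.20 in the BRG1 knockout (adjusted p = 2.9e-04), 0.56 ± 0.20 in the BRM knockout (adjusted p = 0.047) and 0.86 ± 0.20 between the knockouts (adjusted p = 0.0052). The call in the BRM knockout was lost when any 1 library other than BRM knockout replicate 2 was left out, at 0.40 to 0.58 with an adjusted p of 0.0541 to 0.216. That call was kept under 3 of the 19 alternatives listed below. It was lost with RLE scaling, DESeq2, no filter or only the libraries compared, among others. HIST1H2BK was lower in the BRM knockout, with 45.6, 56.1 and 31.7 CPM in the BRG1 knockout, 19.9, 14.0 and 19.4 CPM in the BRM knockout, and 45.5, 53.8 and 41.3 CPM in the Parental line. The BRM knockout lay below every other library, by -1.40 ± 0.23 in log2 fold change against the Parental line (adjusted p = 0.001), and the BRG1 knockout overlapped the Parental line, at -0.07 ± 0.22 (adjusted p = 0.81). HIST1H2BD had 44.7, 25.2 and 40.4 CPM in the BRG1 knockout, 22.7, 15.8 and 29.3 CPM in the BRM knockout, and 27.4, 28.1 and 27.6 CPM in the Parental line, and was not called against the Parental line.

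HIST1H2BJ had the largest fall in the BRM knockout of any tested member with more than 1 CPM on average in the Parental line. It had 1.99, 2.66 and 3.10 CPM in the BRG1 knockout, 0.322, 0.542 and 0.354 CPM in the BRM knockout, and 5.34, 11.1 and 9.23 CPM in the Parental line. The 3 groups did not overlap, with the BRM knockout lowest. The log2 fold change was -1.73 ± 0.33 in the BRG1 knockout (adjusted p = 0.0017), -4.39 ± 0.38 in the BRM knockout (adjusted p = 7.9e-05) and 2.67 ± 0.37 between the knockouts (adjusted p = 2.0e-04). HIST1H2BA, an H2B gene known from the testis, had 10 reads over the BRG1 knockout libraries, 68 over the BRM knockout and 194 over the Parental line, and here the BRG1 knockout was lowest. Its count in the BRG1 knockout was 18.8 times lower than in the Parental line (95% counting interval 10.0 to 39.8, adjusted p = 2.2e-04) and 6.76 times lower than in the BRM knockout (3.46 to 14.7, adjusted p = 0.0031), with no overlap. The call in the BRM knockout, at -1.47 ± 0.47 (adjusted p = 0.03), was lost when any 1 BRM knockout or Parental library was left out, at -1.62 to -1.40. HIST1H2BO had 0.341, 0.763 and 0.885 CPM in the BRG1 knockout, 0.0268, 0.151 and 0.127 CPM in the BRM knockout, and 0.706, 0.496 and 0.882 CPM in the Parental line, and the BRM knockout was below all others by -2.75 ± 0.63 against the Parental line (adjusted p = 0.0062). HIST3H2BB was the other member lower in the BRG1 than in the BRM knockout, with 1.31, 0.710 and 0.941 CPM in the BRG1 knockout, 2.01, 2.80 and 2.33 CPM in the BRM knockout, and 1.69, 0.548 and 1.62 CPM in the Parental line. That difference was -1.27 ± 0.43 (adjusted p = 0.034), and it was lost without replicate 2 or 3 of either knockout, at -1.29 to -1.07. Of the other H2B genes, HIST2H2BF was higher in the BRG1 knockout by 1.10 ± 0.27 (adjusted p = 0.0073), HIST1H2BC was lower in the BRM knockout by -1.83 ± 0.27 (adjusted p = 6.5e-04), and HIST1H2BN stayed between 6.49 and 9.09 CPM in every library.

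Of the 8 H3 genes tested, 1 was higher (12.5%) and 0 lower in the BRG1 knockout, beside 21.6% and 21.9% of all genes. In the BRM knockout 0 were higher and 2 lower (25%), beside 21.0% and 16.4%. HIST1H3H, the H3 member with the most reads, had 28.2, 26.1 and 18.0 CPM in the BRG1 knockout, 22.5, 12.5 and 21.4 CPM in the BRM knockout, and 15.4, 16 and 14.8 CPM in the Parental line. The BRG1 knockout libraries lay above the Parental ones and the BRM knockout overlapped both, with a log2 fold change of 0.65 ± 0.24 in the BRG1 knockout (adjusted p = 0.049). That call was lost without any 1 library other than BRG1 knockout replicate 3 or BRM knockout replicate 2, at 0.46 to 0.67 with an adjusted p of 0.0634 to 0.221. HIST1H3B had 71 reads over the BRG1 knockout libraries, 4 over the BRM knockout and 47 over the Parental line. It was 11.5 times lower in the BRM knockout than in the Parental line (95% counting interval 4.19 to 43.8, adjusted p = 0.011), and the BRG1 knockout was 17.9 times the BRM knockout (6.68 to 67.3, adjusted p = 0.0031). HIST1H3C was also lower in the BRM knockout, by -2.95 ± 0.73 (adjusted p = 0.0095). The identical copies HIST2H3A and HIST2H3C, with HIST2H3D, summed to 26.7, 10.0 and 25.5 CPM in the BRG1 knockout, 19.4, 12.2 and 23.5 CPM in the BRM knockout, and 21.0, 34.8 and 28.6 CPM in the Parental line. These groups overlapped, and none of the 3 genes was called in a comparison with the Parental line.

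Among H4 genes, HIST2H4A, the one with the most reads, was lower in the BRM knockout, with a less stable call in the BRG1 knockout, and HIST1H4J was called higher in both. HIST2H4A had 85.7, 65.7 and 70.5 CPM in the BRG1 knockout, 51.2, 34.8 and 59.3 CPM in the BRM knockout, and 81.0, 136 and 136 CPM in the Parental line. The BRM knockout was below all others, at -1.28 ± 0.24 against the Parental line (adjusted p = 0.0025), and the BRG1 knockout overlapped the Parental line, at -0.67 ± 0.24 (adjusted p = 0.044), a call lost without BRG1 knockout replicate 2 or 3 or Parental replicate 2 or 3, where it was -0.71 to -0.55. Its copy HIST2H4B is identical over 583 bases and had 50.9, 32.9 and 42.0 CPM in the BRG1 knockout, 31.4, 16.8 and 28.6 CPM in the BRM knockout, and 29.1, 43.4 and 27.3 CPM in the Parental line. Summed, the pair averaged 116 ± 19.3 CPM in the BRG1 knockout, 74.0 ± 19.6 CPM in the BRM knockout and 151 ± 36.2 CPM in the Parental line (SD, n = 3 each), and only the BRM knockout did not overlap the Parental line. In a fit with such copies summed, the BRG1 knockout difference was -0.38 and no longer called (adjusted p = 0.221). HIST1H4H had 43.5, 32.6 and 27.5 CPM in the BRG1 knockout, 11.1, 5.81 and 10.3 CPM in the BRM knockout, and 13.6, 21.2 and 17.6 CPM in the Parental line. Like HIST1H1C, it had 3 groups without overlap and opposite changes, of 0.98 ± 0.27 in the BRG1 knockout (adjusted p = 0.013) and -0.95 ± 0.27 in the BRM knockout (adjusted p = 0.019). These calls were lost without BRG1 knockout replicate 1 in the BRG1 knockout, at 0.71, and without BRM knockout replicate 2 or Parental replicate 2 or 3 in the BRM knockout, at -0.94 to -0.71. The HIST1H4H call in the BRG1 knockout was also lost with effective-length offsets, and its change was 0.52 at the lowest over the alternatives. HIST1H4J had 7.16, 8.39 and 4.21 CPM in the BRG1 knockout, 7.40, 6.14 and 7.14 CPM in the BRM knockout, and 4.36, 2.11 and 2.89 CPM in the Parental line, and was called higher in both, by 1.08 ± 0.32 (adjusted p = 0.02) and 1.15 ± 0.32 (adjusted p = 0.018). Each of those calls was lost when 1 of 4 libraries was left out, Parental replicates 2 and 3 among them for both, at 0.80 to 1.03 in the BRG1 knockout, where BRG1 knockout replicates 1 and 2 were the others, and 0.93 to 1.12 in the BRM knockout, where BRM knockout replicates 1 and 3 were.

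**Figure D4:**
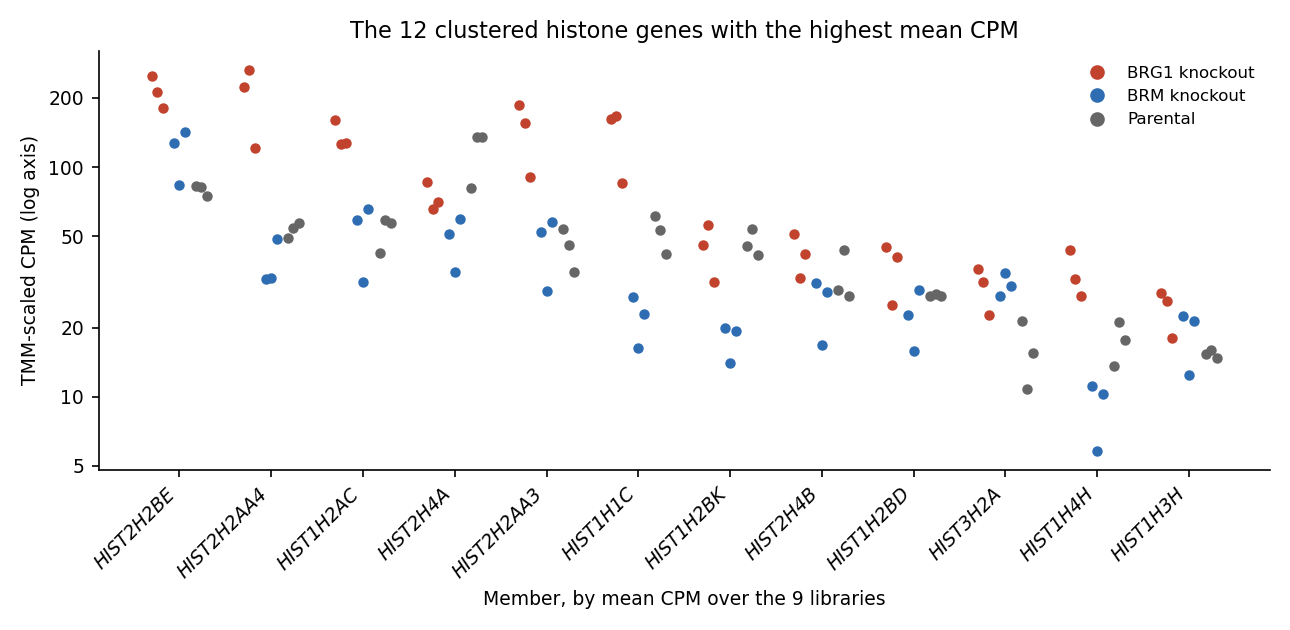
TMM-scaled CPM of the 12 clustered histone genes with the highest mean, on a log axis, 1 point a library, for the BRG1 knockout, the BRM knockout and the Parental line. HIST1H1C and HIST1H4H show 3 groups without overlap, with the BRG1 knockout above and the BRM knockout below the Parental line.

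Setting the comparisons side by side, 3 members were called higher in both knockouts than in the Parental line (HIST2H2BE, HIST3H2A and HIST1H4J). Of these, HIST2H2BE kept its call in the BRM knockout under only 3 of 19 alternatives. Called lower in both were 5 members (HIST1H2AG, HIST1H2AL, HIST1H2BA, HIST1H2BJ and HIST2H4A). HIST1H1C and HIST1H4H were higher in the BRG1 and lower in the BRM knockout. Another 5 were higher in the BRG1 knockout and not called in the BRM knockout, and 9 were lower in the BRM knockout and not called in the BRG1 knockout. For the last 9, the direct comparison called 7 higher in the BRG1 than in the BRM knockout. The 15 members called in neither had log2 fold changes of -0.97 to 0.67 in the BRG1 knockout and -1.26 to 0.89 in the BRM knockout. Of the 18 members higher in the BRG1 than in the BRM knockout, 6 were also called higher in the BRG1 knockout than in the Parental line and 11 lower in the BRM knockout than in the Parental line, with HIST1H1C and HIST1H4H in both counts, and HIST2H4B, HIST1H2BD and HIST1H2BE in neither. Leaving out a single library ended the call for 5 of these 18 (HIST2H4B, HIST1H3C, HIST1H2BD, HIST1H2BE and HIST1H2AM), each with 3 to 7 of the 9 libraries, at log2 fold changes of 0.48 to 2.14.

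Calls were counted by cluster and by kind of transcript model. Of all genes, 21.6% were higher and 21.9% lower in the BRG1 knockout, and 21.0% and 16.4% in the BRM knockout. In the HIST1 cluster, 5 of 26 tested members were higher and 5 lower in the BRG1 knockout (19.2% each), near those of all genes. In the BRM knockout 1 was higher and 14 lower (3.85% and 53.8%). In the HIST2 cluster, 4 of 11 were higher and 1 lower in the BRG1 knockout (36.4% and 9.09%). In the BRM knockout 1 was higher and 2 lower (9.09% and 18.2%), the latter near the 16.4% of all genes. Where all listed models of a member end at the stop codon, 10 of 13 tested members (76.9%) were lower in the BRM knockout. With a model that goes beyond it, 6 of 27 (22.2%) were. For rises in the BRG1 knockout the counts were 1 of 13 (7.69%) and 9 of 27 (33.3%). Within the HIST1 cluster, 9 of 10 members with such models alone and 5 of the 16 others were lower in the BRM knockout. These are counts without a test.

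A stretch of the HIST1 cluster was nearly without reads in all 9 libraries. Between the end of HIST1H2BE at base 26184655 and the start of HIST1H4H at base 26277609 on chromosome 6 (hg38) lie 15 members, from 26188765 to 26273356, and together they held 25 reads, 20 in the BRG1 knockout, 3 in the BRM knockout and 2 in the Parental line. HIST1H4D, an H4 gene, had the most, with 8 reads, and 9 of the 15 had 0, which allows at most 0.00903 CPM for such a gene over the 9 libraries. The flanking HIST1H2BE and HIST1H4H held 2139 and 6771 reads. Of the 15, 6 have a model of at least 1000 bases and held 6 reads or fewer each, while the 15 members elsewhere with such a model held 511 reads or more each. Members with long models were thus nearly without reads there too. Read sharing is a limit for HIST1H3D and HIST1H2AD, of whose 31-base stretches 0 and 1.93% are unique. RNA reads do not measure the DNA copy number of the stretch, and it was not analysed here.

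**Figure D5:**
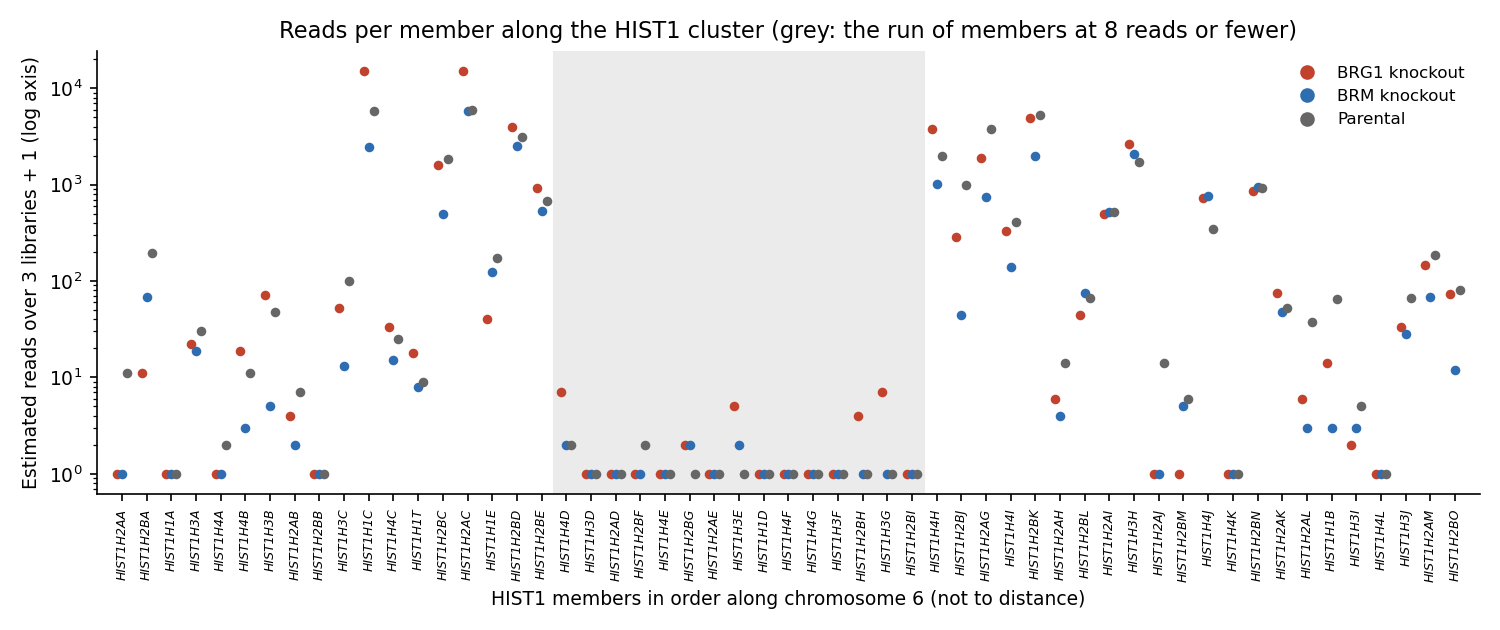
The HIST1 members in chromosome order, with the reads of each, plus 1, summed over the 3 libraries of the BRG1 knockout, the BRM knockout and the Parental line on a log axis; grey marks the run with 8 reads or fewer per member. The 15 consecutive members between HIST1H2BE and HIST1H4H held 25 reads in all, beside 2139 and 6771 on those flanking genes.

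Many H2A and H2B genes stand head to head and share the DNA between their starts, so the promoters of members with unlike changes are shown. RefSeq promoters (GRCh38.p14) were found for 66 of the 71 members and searched, 250 bases before to 50 bases after the start on both strands, for 3 motifs. The octamer ATTTGCAT is bound by the POU-domain factor OCT1 in H2B genes. The motif CCAAT is bound by NF-Y. The TATA box was searched as TATAAA. The 250 bases before the start are given 5′ to 3′ on the gene's strand, with motif matches on either strand in capitals. HIST1H2BJ, lower in both knockouts, is at chr6:27132796-27133045 on the minus strand. HIST2H2BE, called higher in both knockouts though not stably in the BRM knockout, is at chr1:149886683-149886932 on the minus strand. HIST1H1C, opposite in the knockouts, is at chr6:26056471-26056720 on the minus strand.
HIST1H2BJ: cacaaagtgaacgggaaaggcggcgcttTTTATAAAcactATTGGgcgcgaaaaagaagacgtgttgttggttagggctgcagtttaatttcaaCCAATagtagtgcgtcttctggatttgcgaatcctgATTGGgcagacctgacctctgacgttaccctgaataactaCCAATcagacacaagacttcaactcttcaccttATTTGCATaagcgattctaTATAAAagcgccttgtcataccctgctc
HIST2H2BE: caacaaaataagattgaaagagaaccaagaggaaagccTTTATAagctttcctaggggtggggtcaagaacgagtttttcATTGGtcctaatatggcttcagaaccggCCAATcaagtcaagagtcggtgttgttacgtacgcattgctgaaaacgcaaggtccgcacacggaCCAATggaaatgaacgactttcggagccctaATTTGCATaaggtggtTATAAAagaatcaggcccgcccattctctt
HIST1H1C: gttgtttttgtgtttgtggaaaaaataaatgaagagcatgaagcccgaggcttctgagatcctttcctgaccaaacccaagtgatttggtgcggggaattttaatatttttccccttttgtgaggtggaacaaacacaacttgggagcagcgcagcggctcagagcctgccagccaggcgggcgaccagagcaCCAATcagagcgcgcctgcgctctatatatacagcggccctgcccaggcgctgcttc
HIST1H2BJ and HIST2H2BE, which moved in opposite directions, have the same layout near the start, with the octamer beginning 47 and 46 bases and a TATAAA 28 and 30 bases before it. HIST1H2BJ has 4 CCAAT matches in this window and HIST2H2BE 3, and HIST1H1C has 1, beginning 57 bases before the start, with neither octamer nor TATAAA. Across members the octamer was in 14 of 18 H2B and 11 of 16 H2A promoters, in 0 of 6 H1 and 13 H4 promoters, and in 1 of 13 H3 promoters, that of HIST1H3D, whose RefSeq window is the same interval as that of HIST1H2AD and so is counted under both, which is 39.4% of members beside 1.77% of all 35116 promoters. CCAAT was in 84.8% of members, among them every H1, H2A, H2B and H3 promoter and 3 of 13 H4 promoters, beside 34.6% of all promoters, and TATAAA in 66.7% beside 11.5%. The octamer was in 9 of the 16 members lower in the BRM knockout and in 4 of the 22 other tested members with a promoter. Histone type is mixed into these counts, since the octamer lay almost only in H2A and H2B promoters. Head-to-head partners such as HIST1H2BJ and HIST1H2AG are counted there as separate members. A match is only a description of these letters and was not tested as a site.

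Neighbours that share such a promoter did not always move alike. There were 12 head-to-head pairs with 500 bases or fewer between starts, where HIST1H2BO is counted once with HIST1H2AM and again with HIST1H3J. HIST1H2BJ and HIST1H2AG, 291 bases apart, were both lower in both knockouts, and HIST1H2AM and HIST1H2BO, 313 bases apart, were both lower in the BRM knockout. HIST2H2BE was called higher in both knockouts, though not stably in the BRM knockout. HIST2H2AC, 322 bases away, was lower in the BRM knockout by -2.69 ± 0.63 (adjusted p = 0.0068). That difference turned to 1.16 ± 1.72 with the rRNA covariate (adjusted p = 0.918). HIST1H2BC was lower in the BRM knockout and its partner HIST1H2AC, 218 bases away, was higher in the BRG1 knockout, each without a call in the other. In the direct comparison both were called higher in the BRG1 knockout, by 1.72 and 1.41. HIST3H2A was called higher in both knockouts, and HIST3H2BB, 233 bases away, was called in neither. In the BRM knockout their log2 fold changes lay close together, at 0.95 and 0.89, and in the BRG1 knockout they were 0.93 and -0.38. HIST1H2BK, which was lower in the BRM knockout, faces HIST1H2AH at 330 bases, which had 21 reads in all. The sources used here do not say whether counting used the strand.

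Genes that make or handle histone mRNA were followed beside the members. Of 20 genes of histone pre-mRNA processing and the histone locus body, 2 were higher and 5 lower in the BRG1 knockout (median log2 fold change -0.26), and 2 were higher and 12 lower in the BRM knockout (median -0.56), beside medians of -0.01 and 0.09 over all genes. The 5 of 20 lower in the BRG1 knockout are near the 21.9% of all genes, and the 12 of 20 in the BRM knockout stand beside 16.4%. SLBP, which binds the stem-loop, averaged 113 CPM in the BRG1 knockout, 79.8 CPM in the BRM knockout and 116 CPM in the Parental line, with log2 fold changes of -0.03 (adjusted p = 0.91) and -0.53 (adjusted p = 0.041). NPAT, the coactivator of histone transcription at the locus body, averaged 20.4, 25.6 and 42.1 CPM in that order and was lower in both knockouts, by -1.05 (adjusted p = 0.0052) and -0.72 (adjusted p = 0.036). HINFP, which binds H4 promoters, was higher in both, at 29.9 CPM in the BRG1 knockout and 33.0 CPM in the BRM knockout against 21.0 CPM in the Parental line (adjusted p = 0.046 and 0.018). CPSF3, the endonuclease that cuts histone pre-mRNA, was lower in both, by -0.58 (adjusted p = 0.005) and -1.07 (adjusted p = 3.0e-04). The counts of higher genes in this list ranged from 0 to 3 in the BRG1 knockout and 0 to 2 in the BRM knockout over the alternatives. The count of 5 lower in the BRG1 knockout was 9 without BRG1 knockout replicate 3, and the count of 12 in the BRM knockout was 7 without BRM knockout replicate 3 or Parental replicate 2 or 3.

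Replacement histones, which are made outside S phase as well and mostly carry poly(A) tails, and S-phase genes had calls in the lower direction and 0 in the higher one in both knockouts. Of 14 replacement histone genes, 10 were tested, and 0 were higher and 5 lower in the BRG1 knockout (median -0.86). In the BRM knockout 0 were higher and 8 lower (median -0.98). The lower ones are 50% and 80% of those tested, beside 21.9% and 16.4% of all genes. H2AFX, the H2A form phosphorylated at DNA breaks, averaged 137 CPM in the BRG1 knockout, 61.4 CPM in the BRM knockout and 394 CPM in the Parental line, and H2AFZ 237, 130 and 377 CPM. H1F0, a linker histone of resting cells, averaged 176 CPM in the BRG1 knockout, 377 CPM in the BRM knockout and 466 CPM in the Parental line, and was lower in the BRG1 knockout by -1.40 (adjusted p = 4.0e-04) and not called in the BRM knockout, at -0.31 (adjusted p = 0.27). Thus HIST1H1C was higher in the BRG1 knockout where H1F0 was lower. Of 36 S-phase genes, SLBP among them, 0 were higher and 18 lower in the BRG1 knockout (median -0.84; 10 lower without Parental replicate 2 or 3 and 11 without BRG1 knockout replicate 1), and 0 were higher and 36 lower in the BRM knockout (median -2.26). The lower ones are 50% and 100% of this list, beside 21.9% and 16.4% of all genes. Between the knockouts 33 of the 36, or 91.7%, were higher in the BRG1 knockout and 0 lower (median 1.55), beside 21.6% and 23.8%. PCNA, the sliding clamp of replication, averaged 143 CPM in the BRG1 knockout, 49.4 CPM in the BRM knockout and 220 CPM in the Parental line, with adjusted p = 0.13 in the BRG1 knockout and 7.0e-04 in the BRM knockout.

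Histone chaperones and RNAs that, like most members, have no poly(A) tail complete the lists. Of 18 chaperone and acetyltransferase genes, 0 were higher and 5 lower in the BRG1 knockout (median -0.25). In the BRM knockout 0 were higher and 13 lower (median -0.89). The lower ones are 27.8% in the BRG1 knockout, near the 21.9% of all genes, and 72.2% in the BRM knockout, beside 16.4%. The count of 5 was 3 without BRG1 knockout replicate 1 or Parental replicate 2 or 3, and 8 without both libraries left out above. ASF1B, which hands new H3 and H4 to the assembly factors, was lower by -1.43 in the BRG1 knockout (adjusted p = 0.0095) and -3.36 in the BRM knockout (adjusted p = 2.6e-04). Of 11 RNAs without a poly(A) tail other than histones, 4 were tested, and 0 were called in the BRG1 knockout while RN7SL1, the signal recognition particle RNA, was the 1 called in the BRM knockout. It averaged 64.7 CPM in the BRG1 knockout, 253 CPM in the BRM knockout and 113 CPM in the Parental line. The log2 fold change was 1.15 in the BRM knockout (adjusted p = 0.048). This 1 of 4, or 25%, stands near the 21.0% of all genes called higher there. The count of 1 was 0 without BRG1 knockout replicate 2, BRM knockout replicate 1 or 3 or Parental replicate 1 or 2, and 2 without BRG1 knockout replicate 1 or BRM knockout replicate 2. In the BRG1 knockout RN7SL1 overlapped the Parental line and was not called, at -0.81 (adjusted p = 0.133). RPPH1, the RNA of RNase P, was not called in either knockout, at 1.41 and 1.38, nor was RN7SK, at 0.37 and 0.29, and RN7SL2 stood at -0.96 and 1.27. Between the knockouts 0 of the 4 were higher and 2 lower in the BRG1 knockout (50%, beside 23.8% of all genes), under every alternative too. They were RN7SL1, at -1.96 (adjusted p = 0.0037), and RN7SL2, at -2.22 (adjusted p = 0.0042). Whether this difference has a part in the histone values was not tested. All counts of lower genes in these lists against the Parental line also fell to 1 or 0 with the rRNA share as a covariate.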

How the data were processed

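RNA-seq of 9 H358 libraries in 3 groups was analysed from the deposited files. Each deposited file holds, per the file headers, the estimated counts of 1 library by transcript, with the TPM and the effective length. The TPM values come from the authors' quantification run, as the headers show, and give all libraries an equal total. Salmon, DESeq2 and the build hg38 are named in the submitters' processing notes. The sources used here give no versions, library selection or strand setting. The 203835 listed transcripts were joined to GENCODE release 29, and reads without a gene made up no more than 0.0193% of any library.

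Estimated counts were summed by gene and rounded. In edgeR 4.0.16 (R 4.3.3), filterByExpr with the groups retained 18205 of 58237 genes, TMM scaled the libraries, and a robust quasi-likelihood model with group means took in the 9 libraries, leaving 6 residual degrees of freedom. The adjusted p-values in the text are from this edgeR test (Benjamini-Hochberg over all genes tested, threshold 0.05), for 3 comparisons. The standard error was taken as the size of the log2 fold change over the root of F, which is approximate and unreliable at low reads. There, a ratio of summed reads is given with an exact 95% counting interval, which covers counting error only. The procedure was tested on simulated counts.

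Values of every library, or summed reads, are given for the 12 members with the highest mean CPM and for the 4 largest rises and 4 largest falls past the threshold in each comparison. Other members named with values were chosen after these were seen. Identical copies were also summed. Alternatives, 19 in all, included RLE scaling, DESeq2 1.42.0, no filter, effective-length offsets, a replicate block, the rRNA percent as a covariate and each library left out. The members and gene lists were chosen with earlier results of these data known.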

Additional observations from a re-analysis of the deposited data

How the results depend on the processing

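Of 19 alternatives, adding the rRNA percent as a covariate changed most, and the cause was not tested. No Parental library had an rRNA share as high as any knockout library, so against the Parental line this covariate is hard to separate from genotype. With it, members called higher numbered 0 in the BRG1 knockout and 0 in the BRM knockout against the Parental line, members called lower 1 and 0, members lower in the BRG1 than in the BRM knockout 1, and the BRG1 knockout median was 0.31. The covariate turned HIST2H4A to 0.15 ± 0.62 and HIST3H2A to -0.22 ± 0.47 in the BRG1 knockout. In the BRM knockout it turned HIST3H2A to -0.56 ± 0.60, HIST1H4H to 0.056 ± 0.82 and HIST2H2AC to 1.16 ± 1.72. None of these was called. Over all genes that fit called 498 higher and 1062 lower in the BRG1 knockout, 0 in the BRM knockout (1534 at an unadjusted p under 0.05), and 2748 higher and 3215 lower between the knockouts. Leaving out 1 library gave 6 to 10 members higher and 2 to 6 lower in the BRG1 knockout (median -0.26 to 0.024), 1 to 4 higher and 14 to 17 lower in the BRM knockout (median -0.79 to -0.39), and 13 to 18 higher and 1 to 2 lower between the knockouts (median 0.58 to 0.96). Without Parental replicate 1 and BRG1 knockout replicate 3 together, the BRG1 knockout median was -0.25 and 1 member was lower between the knockouts. DESeq2 called 10 members higher and 6 lower in the BRG1 knockout, 2 and 16 in the BRM knockout, and 20 and 2 between the knockouts. Of 10, 3 and 18 members called higher in these comparisons, 0, 0 and 13 were kept under all alternatives, and 6, 1 and 13 under all but the covariate. Of 6, 16 and 2 called lower, 1, 0 and 1 were kept under all, and 2, 14 and 1 under all but the covariate.

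Same-numbered libraries did not deviate together, with 9 correlations of -0.137 to 0.291 of which 1 was over 0.1, so the numbers were not taken as pairs. With the replicate block, 9 members were higher and 6 lower in the BRG1 knockout, 2 and 15 in the BRM knockout, and 17 and 2 between the knockouts.

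The counts of the other lists, recomputed as an addition made after the data were seen, moved as follows. For histone pre-mRNA processing in the BRG1 knockout, genes called higher were 1 with RLE, DESeq2, the replicate block or effective-length offsets, 0 without the filter, with the covariate or with only the compared libraries, and 0 to 3 without 1 library. Genes called lower were 1 with the covariate, 9 without both libraries named above and 5 to 9 without 1. In the BRM knockout, genes higher were 1 without the filter or with offsets, 0 with the covariate and 0 to 2 without 1 library, and genes lower were 0 with the covariate and 7 to 12 without 1 library. Between the knockouts, genes higher were 1 with the covariate and 3 to 9 without 1 library, and genes lower 1 with offsets, 5 without both libraries and 2 to 5 without 1. Replacement histones lower were 1 (BRG1 knockout) and 0 (BRM knockout) with the covariate, and 1 was higher in the BRG1 knockout without both libraries. Between the knockouts, 4 to 7 were higher without 1 library, and those lower were 1 with RLE, DESeq2, no filter or only the compared libraries and 1 to 2 without 1 library. Chaperone genes in the BRG1 knockout were higher in 1 with offsets and lower in 0 with the covariate, 8 without both libraries and 3 to 6 without 1, and in the BRM knockout lower in 0 with the covariate. S-phase genes with the covariate were higher in 2 and lower in 0 in the BRG1 knockout and lower in 0 in the BRM knockout, and without 1 library 10 to 21 were lower in the BRG1 knockout. RNAs without poly(A) tails numbered 0 to 1 higher and 0 to 2 lower in the BRG1 knockout without 1 library. In the BRM knockout 0 to 2 were higher without 1 library, 0 with RLE, no filter, offsets, the covariate or without both libraries, and 2 with DESeq2, the replicate block or only the compared libraries.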
